A study of Caenorhabditis elegans with 2 samples.

Results

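Genes for proteins of the large subunit of the cytosolic ribosome were examined for binding of LSY-12, a chromatin protein, in *Caenorhabditis elegans*. The members were the protein-coding genes whose symbols begin with rpl- or rla- and a digit, and there were 50 of them among 19973 protein-coding genes on the nuclear chromosomes. LSY-12 was measured by ChIP-seq, in which DNA bound by a protein is recovered with an antibody and sequenced, with an antibody against GFP. The only group was whole worms of mixed sex of strain OP568 (unc-119(tm4063) III; wgIs568), collected as L3 larvae 43 h after a starved L1 start, with biological replicates numbered 3 and 4. The animals express LSY-12 with GFP and FLAG at its C terminus from a stable transgene, and the promoter that drives it is not given in the sources used here. There was no second condition and no untagged strain here, so the comparisons below are between genes and between the replicates.

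LSY-12 belongs to the MYST family of histone acetyltransferases and is known in the worm for its part in setting the left and right fates of the ASE taste neurons. The large subunit joins amino acids at its peptidyl transferase centre, lets the new chain out through an exit tunnel, and reaches the elongation factors with flexible stalks. Its proteins are made in nearly every cell in matched amounts, and their genes are among the most highly transcribed of growing animals. Many worm mRNAs receive a spliced leader, so that the annotated 5′ end of a gene can lie downstream of the place where transcription begins.

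A member was called bound when the authors' thresholded list held a summit at most 500 bp away, in either direction, from the 5′-most start in its annotation. By this rule 28 of the 50 members (56.0%) were bound and 22 were not, against 1050 of all 19973 protein-coding genes (5.26%). The bound members had 28 distinct summits, so none shared a summit with another member. They lay on all chromosomes, with 8 on chromosome I, 4 on II, 7 on III, 5 on IV, 3 on V and 1 on X. The members not bound numbered 9 on chromosome I, 5 on II, 2 on III, 3 on IV, 2 on V and 1 on X. With a window of 250 bp to either side the count dropped to 9 of 50 members (18.0%), against 3.32% of all genes, because most summits lay farther from the start than that.

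The symbols and the protein names were not the same thing for every member. All 50 gene identifiers were found in RefSeq, where 48 had a product named as a large subunit protein. *rpl-24.2*, which was bound, is the ribosome assembly factor RLP24 there, named *rsl-24D1*, and *rpl-42*, which was not bound, is a NAM-associated domain protein. Without those genes 27 of 48 members (56.2%) were bound.

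The signal of each region is given below as relative signal, the authors' signal value divided by the median of all 30000 regions of the same list, so that 1 is the middle of the list. For each replicate the value is that of the strongest candidate whose summit fell in that window. In the 28 bound members the mean over both replicates ranged between 2.14 and 38.5 with a median of 4.15, while the median was 3.10 over the 1008 other bound genes with a candidate in both replicates. In whole animals, binding in fewer cells and weaker binding in each cell cannot be told apart.

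**Figure D1:**
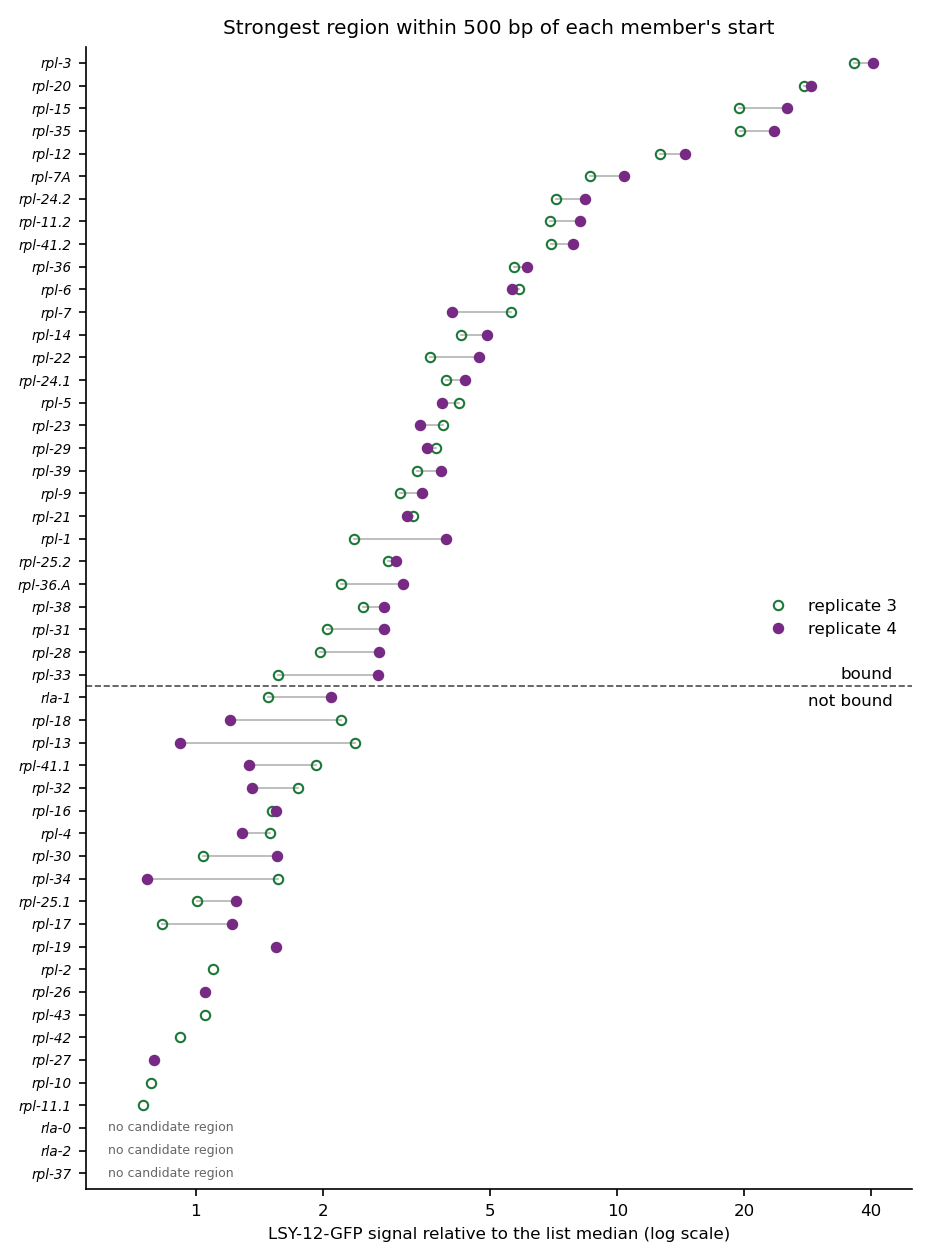
Relative LSY-12-GFP signal (log axis, signal divided by the list median) of the strongest candidate region within 500 bp of each member's start, with replicate 3 as open and replicate 4 as filled circles and a grey line joining them. Bound members stand above the dashed line, where *rpl-3* leads with 36.5 and 40.5; below it are the members not bound, of which *rla-0*, *rla-2* and *rpl-37* had no candidate region.

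The gene for uL3, a protein whose loops reach the peptidyl transferase centre, had the highest signal of the members and of all regions in the data. *rpl-3* (chromosome III, 3867854 to 3869587, plus strand) had a relative signal of 36.5 in replicate 3 and 40.5 in replicate 4, a mean of 38.5 ± 2.83 (SD, n = 2), and its region ranked 1 in both replicate lists and in the thresholded list. *rpl-20*, which encodes eL20, followed with 27.7 and 28.8 (28.2 ± 0.829), rank 2 in each list. *rpl-15*, for eL15 in the rRNA core of the subunit, had 19.4 and 25.3 (22.3 ± 4.15). *rpl-35*, for uL29 at the mouth of the exit tunnel, had 19.5 and 23.5 (21.5 ± 2.84). The difference between *rpl-3* and *rpl-20* was larger than the replicate SD of either, and that between *rpl-15* and *rpl-35* was not. Members held 3 of the 5 strongest thresholded peaks, 6 of the 100 strongest and 16 of the 500 strongest of the 2095.

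The next members came in a second step. *rpl-12*, for uL11 at the base of the stalk where the elongation factors act, had 12.6 and 14.5 (13.5 ± 1.32). *rpl-7A*, for eL8, had 8.64 and 10.4 (9.52 ± 1.25), and 32.1% of the 32-base strings around its start occur more than once in the genome, the highest share among bound members. *rpl-24.2*, the assembly factor gene, had 7.14 and 8.38 (7.76 ± 0.873). *rpl-11.2*, for uL5, which holds 5S rRNA in the central protuberance, had 6.93 and 8.17 (7.55 ± 0.877). *rpl-41.2*, for the very short protein L41, had 6.98 and 7.83 (7.41 ± 0.604). All 5 were higher in replicate 4, and *rpl-24.2*, *rpl-11.2* and *rpl-41.2* differed from each other by less than their replicate SDs.

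*rpl-36*, for eL36, had 5.69 and 6.12 (5.91 ± 0.306), *rpl-6*, for eL6, had 5.84 and 5.62 (5.73 ± 0.156), and *rpl-7*, for uL30, had 5.60 and 4.05 (4.83 ± 1.10). These 3 could not be ordered within their spread. The next 11 bound members, *rpl-14*, *rpl-22*, *rpl-24.1*, *rpl-5*, *rpl-23*, *rpl-29*, *rpl-39*, *rpl-9*, *rpl-21*, *rpl-1* and *rpl-25.2*, had means between 2.92 and 4.59. The lowest bound members were *rpl-36.A*, *rpl-38*, *rpl-31*, *rpl-28* and *rpl-33*. *rpl-36.A*, for eL42, had 2.21 and 3.10 (2.65 ± 0.630), and *rpl-38* had 2.49 and 2.80 (2.65 ± 0.223). *rpl-31*, for eL31 at the rim of the exit tunnel, had 2.05 and 2.80 (2.43 ± 0.530). *rpl-28*, for eL28, had 1.97 and 2.72 (2.35 ± 0.531), and *rpl-33*, for eL33, had 1.57 and 2.70 (2.14 ± 0.801). In replicate 3 alone the regions of *rpl-28* and *rpl-33* ranked 2269 and 4029, past the number of thresholded peaks. Ordered by mean, 8 of the 38 differences between neighbouring members exceeded the larger of their SDs.

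The replicates ordered the bound members alike. The thresholded list was itself chosen for reproducibility between these replicates, so the agreement below was in part set by that selection. Spearman's rho between the replicates was 0.956 over the 28 bound members and 0.788 over the 1008 other bound genes, as a description, since all values of a replicate come from 1 library. Relative signal was higher in replicate 4 at 22 of the 28 bound members (78.6%) and at 608 of the 1008 other bound genes (60.3%), and the median ratio of replicate 4 to replicate 3 was 1.13 for members and 1.07 for the others. The summits of the replicates lay a median of 7 bp apart at the bound members and 17 bp apart at the other bound genes.

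The DNA at the 6 strongest member summits is shown as 121 bases centred on the thresholded summit, read 5′ to 3′ on the strand of the gene, from the RefSeq copy of WBcel235 (ce11). It is given because these regions carry the highest LSY-12 signal among the members, and capitals mark the hexamers treated further on, of which *rpl-35* and *rpl-12* hold none. The regions are chrIII:3867511-3867631 for *rpl-3*, chrIV:4750016-4750136 for *rpl-20*, chrIV:654865-654985 for *rpl-15*, chrIII:7854631-7854751 for *rpl-35*, chrIV:13240614-13240734 for *rpl-12* and chrIV:4390595-4390715 for *rpl-7A*.
rpl-3: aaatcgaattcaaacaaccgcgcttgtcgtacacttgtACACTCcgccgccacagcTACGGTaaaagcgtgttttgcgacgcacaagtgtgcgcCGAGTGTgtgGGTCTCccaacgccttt
rpl-20: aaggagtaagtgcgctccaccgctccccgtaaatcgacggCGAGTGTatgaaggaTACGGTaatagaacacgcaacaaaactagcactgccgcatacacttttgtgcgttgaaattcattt
rpl-15: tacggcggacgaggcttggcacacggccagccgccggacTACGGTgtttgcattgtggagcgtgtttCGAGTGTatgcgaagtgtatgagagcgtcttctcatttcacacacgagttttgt
rpl-35: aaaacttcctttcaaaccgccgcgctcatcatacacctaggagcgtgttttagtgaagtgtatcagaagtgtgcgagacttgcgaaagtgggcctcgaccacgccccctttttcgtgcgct
rpl-12: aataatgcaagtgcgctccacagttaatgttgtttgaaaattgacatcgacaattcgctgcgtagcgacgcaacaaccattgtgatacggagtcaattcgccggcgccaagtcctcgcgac
rpl-7A: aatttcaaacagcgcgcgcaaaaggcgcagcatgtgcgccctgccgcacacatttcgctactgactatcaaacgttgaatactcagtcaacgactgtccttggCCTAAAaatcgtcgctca

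Summits of bound members lay upstream of the gene in all 28 cases, at a median position of −298.5 bp from the annotated start, and 23 of the 28 (82.1%) lay between −400 and −200 bp. Among the 1022 other bound genes, 86.2% of summits were upstream, the median was −181 bp and 35.8% lay between −400 and −200 bp. *rpl-12* with its summit at −23 bp and *rpl-7A* at −65 bp were the members with a summit within 100 bp of the start. *rpl-35* had the most distant one, at −443 bp. The strongest members *rpl-3*, *rpl-20* and *rpl-15* had theirs at −283, −298 and −349 bp. The summit was the midpoint of the region, to within 1 bp, for 19 of the 28, so at these it gives no position apart from that of the region. Regions were 410 bp wide for 18 members and 127 to 370 bp wide for the other 10. Between the replicates, summits of bound members lay a median of 7 bp apart. No bound summit lay inside the member's own gene, and 1 lay in another protein-coding gene, that of *rpl-24.2* in C03D6.1.

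**Figure D2:**
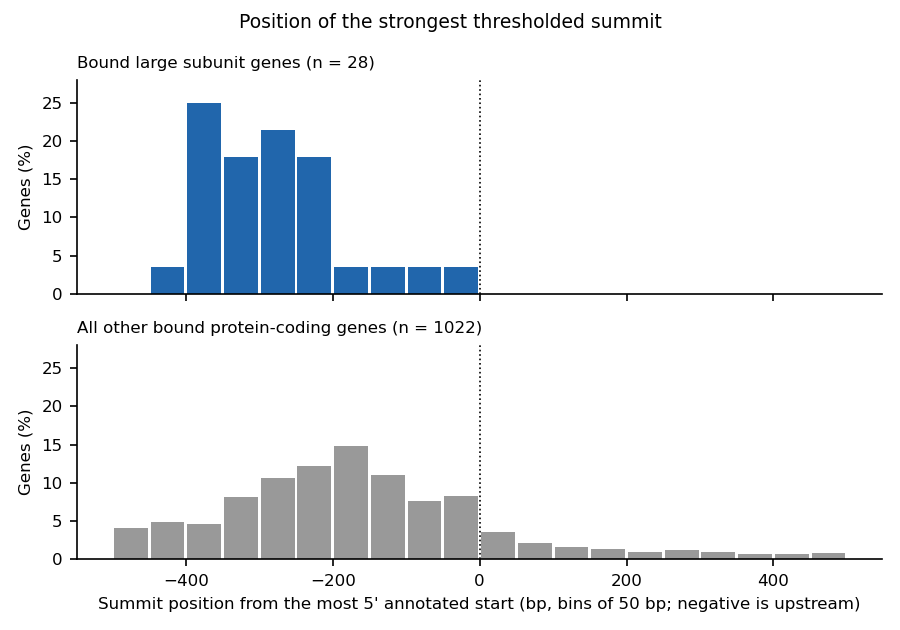
Position of the strongest thresholded summit from the most 5′ annotated start, in bp (negative is upstream), as the percentage of genes per 50 bp for the 28 bound members above and the 1022 other bound genes below. Members fill the stretch between −400 and −200 bp, while the other genes peak nearer to the start and reach past it.

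Shared summits were common. For 16 of 28 bound members (57.1%) the summit also lay within 500 bp of another protein-coding gene's start, against 441 of the 1050 bound genes of the whole annotation (42.0%). All 16 partners were transcribed away from the member, so that a single summit lay between both starts and cannot be given to either gene. In 4 pairs the partner was itself a ribosomal protein gene. *rpl-36* faced *rps-14*, *rpl-24.1* faced *rps-10* and *rpl-39* faced *rps-30*, each a gene of the small subunit, and *rpl-28* faced *mrpl-49*, a gene of the mitochondrial ribosome. *rpl-9* faced *lpd-7*, a large subunit assembly gene. The partner of *rpl-20* was Y17G9B.5 and that of *rpl-15* K11H12.8. That of *rpl-12* was *lin-54*, the DNA-binding subunit of the DRM complex that represses cell cycle and germline genes, and that of *rpl-7A* was *set-21*. The summit of *rpl-12* lay at −23 bp from the member and at −370 bp from *lin-54*. Among the weakest bound members, *rpl-33* faced *farl-11*, *rpl-31* faced *sac-2* and *rpl-36.A* faced *nuo-1*, a subunit of mitochondrial complex I, and their summits lay nearer to the partner's start than to the member's, with that of *rpl-33* at −383 bp from the member and −145 bp from *farl-11*.

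The 22 members not bound were seldom without any signal. In the pooled list, which holds 30000 candidate regions and much background, 45 of 50 members had a candidate summit in the window (90.0%), against 31.8% of all genes. The count was 44 of 50 in replicate 3, against 31.4% of all genes, and 42 of 50 in replicate 4, against 32.1%. These counts include the 28 bound members, which all had a candidate in each list, and the shares of all genes include bound genes. Of the 22 not bound, 17 had a candidate in the pooled list, 16 in replicate 3 and 14 in replicate 4. Of the 22, 11 had a candidate in both replicates, with mean relative signals between 1.03 and 1.79 and a median of 1.53, and their summits in the replicates lay a median of 50 bp apart. Spearman's rho between the replicates was −0.345 over these 11, whose order thus differed between the replicates. They had missed the threshold and spanned a narrow range, so this rho cannot be set against that of the bound members.

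*rla-1*, for the stalk protein P1, was the highest by mean of those not bound, with 1.48 in replicate 3 and 2.09 in replicate 4 (1.79 ± 0.430), from regions 283 bp apart. *rpl-18*, for eL18, had 2.22 and 1.20 (1.71 ± 0.715). *rpl-13*, for eL13, had 2.39 and 0.919 (1.65 ± 1.04), and its pooled region of relative signal 2.10 and rank 2164 was the nearest to the limit of the thresholded list, whose lowest peak had 2.13. On the other side of that limit, *rpl-33* was the nearest bound member, with a pooled relative signal of 2.40 and rank 1654. *rpl-41.1* had 1.93 and 1.34 (1.64 ± 0.420). The lowest with both replicates were *rpl-30* with 1.04 and 1.56 (1.30 ± 0.369), *rpl-34* with 1.57 and 0.768 (1.17 ± 0.567), *rpl-25.1* with 1.01 and 1.24 (1.12 ± 0.168) and *rpl-17* with 0.832 and 1.22 (1.02 ± 0.272). The weakest bound member by mean, *rpl-33*, exceeded *rla-1* by 0.352, less than its own SD.

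A candidate appeared in 1 replicate for 8 members. In replicate 3 these were *rpl-2* with 1.10, *rpl-43* with 1.05, *rpl-42* with 0.916, *rpl-10* with 0.784 and *rpl-11.1* with 0.750. In replicate 4 they were *rpl-19* with 1.55, *rpl-26* with 1.05 and *rpl-27* with 0.797. *rla-0*, *rla-2* and *rpl-37* had none in either replicate or in the pooled list. The start of *rpl-37* lies inside *pitp-1*, and 18.8% of the 32-base strings around it are repeated in the genome, as are 19.7% around *rpl-2*. Over the 47 members with at most 10% of such strings, 27 (57.4%) were bound.

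Members grouped by their place in the subunit were bound in part in each group. Around the peptidyl transferase centre and the central protuberance 5 of 8 members were bound (62.5%), namely *rpl-3*, *rpl-15*, *rpl-11.2*, *rpl-5* and *rpl-21*, with a median mean signal of 7.55 over them. *rpl-2* and *rpl-10*, for uL2 and uL16, which also stand at the centre, were not bound. At the exit tunnel and its rim 6 of 11 were bound (54.5%), with a median of 3.25. *rpl-4* and *rpl-17*, for uL4 and uL22, which narrow the tunnel, were not among them. Of the 5 stalk genes *rpl-12* and *rpl-1* were bound (40%), with a median of 8.34 over only these 2 genes. *rla-0*, *rla-1* and *rla-2*, for the uL10, P1 and P2 proteins of the flexible stalk, were not bound. The remaining 26 members had 15 bound (57.7%) with a median of 4.59. *rpl-5* and *rpl-11.2*, whose products enter the subunit together with 5S rRNA, were both bound, with means of 4.03 and 7.55.

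Members whose symbols share a number were set side by side. The pairs are too few to show whether a split is common, and *rpl-24.2* is an assembly factor gene. *rpl-11.2* on chromosome X was bound and *rpl-11.1* on chromosome V was not, with 6.93 and 8.17 in the replicates against 0.750 in replicate 3 and no candidate in replicate 4. Their proteins, read from the annotated coding sequence, were 91.3% identical over 196 residues. *rpl-25.2* was bound with 2.86 and 2.99, and *rpl-25.1* was not with 1.01 and 1.24, at 70.1% identity. *rpl-41.2* was bound with 6.98 and 7.83 and *rpl-41.1*, upstream of it in tandem, was not with 1.93 and 1.34. The summit of *rpl-41.2* was the thresholded summit nearest to *rpl-41.1*, 840 bp downstream of its start, and their annotated peptides of 22 residues were identical. *rpl-24.1* and *rpl-24.2* were both bound, with means of 4.14 and 7.76, and were 29.1% identical, the lowest of these pairs.

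The uL5 pair is shown because both genes encode nearly the same protein and differ in LSY-12 signal. The windows are 121 bases around the thresholded summit at chrX:2242939-2243059 for *rpl-11.2* and around the pooled candidate summit at chrV:3586147-3586267 for *rpl-11.1*, each on the gene's strand, with the same hexamers in capitals.
rpl-11.2: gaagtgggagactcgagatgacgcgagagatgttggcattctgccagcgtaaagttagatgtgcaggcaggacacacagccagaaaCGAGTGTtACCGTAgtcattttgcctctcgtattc
rpl-11.1: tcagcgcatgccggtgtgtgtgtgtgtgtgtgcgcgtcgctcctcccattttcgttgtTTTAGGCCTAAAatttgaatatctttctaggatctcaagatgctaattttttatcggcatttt

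The letters around the summits were then compared. The signal chose the windows, each centred on the strongest thresholded summit of its gene, and its size was not used in the counts. Windows reaching 75 bp to either side of the 28 member summits were set beside those of the 818 other thresholded peaks at promoters and beside 19973 windows of equal length, one for each protein-coding gene, centred 298 bp upstream of its start. The median GC content was 44.7% in member windows, 45% at the other peaks and 33.8% in the promoter windows. Of the motifs fixed by name, read on both strands, TATAAA was in 0 of 28 member windows, in 7.95% of the other peaks and in 18.6% of promoter windows. This depended on the window. With 150 bp to either side TATAAA was in 6 of 28 member windows (21.4%), 27.5% of the other peaks and 34.1% of promoter windows. In the 500 bp upstream of the start it was in 46.4% of bound members, 63.6% of members not bound and 54% of all genes. CTGCGT was in 25% of member windows, 20.2% of the other peaks and 3.81% of promoter windows. GAGAGA was in 14.3% of member windows, 26.7% of the other peaks and 9.03% of promoter windows. TCTTTT was in 35.7% of member windows, 27.4% of the other peaks and 26.4% of promoter windows. TTTCAG, the letters of the worm splice acceptor, was in 10.7% of member windows, 15% of the other peaks and 26.4% of promoter windows. GGGCGG was in 2 member windows (7.14%), 8.68% of the other peaks and 2.94% of promoter windows. CACGTG was in 1 member window (3.57%), 6.11% of the other peaks and 2.41% of promoter windows.

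Out of 1409 hexamers found in member windows, the 5 with the largest excess in share over the other peaks were picked after the letters had been counted, so their shares are a description. ACCGTA was in 14 of 28 member windows (50%), against 10.5% of the other promoter peaks and 4.60% of promoter windows. ACACTC was likewise in 50% of member windows, against 14.2% of the other peaks and 4.92% of promoter windows. CACTCG, which overlaps it by 5 letters, was in 42.9% of member windows, against 9.05% of the other peaks and 2.63% of promoter windows. GAGACC was in 42.9% of member windows, against 13.8% of the other peaks and 4.31% of promoter windows. CCTAAA was in 35.7% of member windows, against 3.79% of the other peaks and 7.42% of promoter windows. In windows of 50 bp to either side CCTAAA was in 14.3% of members, so much of it lay away from the summit. ACCGTA lay close to it, with 10 of its 14 occurrences within 25 bp. At least 1 of the 5 was in 24 of 28 member windows (85.7%), against 39.4% of the other peaks, and at least 3 were in 39.3%, against 2.20%. *rpl-3* and *rpl-21* held all 5. *rpl-12*, *rpl-25.2*, *rpl-35* and *rpl-9* held none, although *rpl-35* and *rpl-12* were among the 5 strongest members.

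The same hexamers were then counted in the 500 bp upstream of every gene, bound or not. They had been picked from the summit windows of the bound members, which lie largely within this stretch. The shares of bound members are therefore high by selection, and their contrast with members not bound is no fresh comparison. ACCGTA was in 64.3% of bound members and 31.8% of members not bound, against 13.9% of all genes. ACACTC was in 50% of bound members and 13.6% of members not bound, against 15.7% of all genes. CACTCG was in 46.4% of bound members and 9.09% of members not bound, against 8.87% of all genes. CCTAAA was in 78.6% of bound members and 40.9% of members not bound, against 21.4% of all genes. GAGACC was in 42.9% of bound members and 45.5% of members not bound, against 12.9% of all genes. At the 15 summits of bound small subunit genes that no member shares, ACCGTA and ACACTC were each in 20% and CACTCG in 6.67%.

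In several members the hexamers stood together as 1 string. ACACTC and CACTCG join to ACACTCG, which was in 11 of 28 member windows (39.3%), against 1.96% of the other promoter peaks, and 10 of the 28 also held ACCGTA (35.7%), against 0.978%. In 7 of those 10 the letters formed CGAGTGTNACCGTA, with 1 free base in the middle, read on either strand. These were the windows of *rpl-1*, *rpl-6*, *rpl-11.2*, *rpl-21*, *rpl-22*, *rpl-24.1* and *rpl-29*, that is 25% of bound members against 0.856% of the other promoter peaks. The middle of the string lay at most 33 bp from the summit in each, and it ran on the same strand as the gene in 6 of the 7. *rpl-38* held it with 1 mismatch and *rpl-36.A* with 2.

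The string was then sought in the whole genome. It occurred 30 times on the nuclear chromosomes, on either strand, and 28 of these were at most 500 bp from the start of a protein-coding gene. No number expected from base composition was computed. Of the 30, 9 lay within 500 bp of a large subunit gene's start and 5 within 500 bp of a small subunit gene's start, and the copy between *rpl-24.1* and *rps-10* counts in both. A thresholded peak covered 15 of the 30, but the string was picked from member windows and 7 of the 15 are those windows. Of the other 23 copies 8 were covered (34.8%), and thresholded peaks cover 1.69% of the bases within 500 bp of a protein-coding start. Of the 15 covered copies, 6 were near neither kind of ribosomal gene. The string was not in every bound member and not every string was bound. *rpl-34* carries it at −422 bp and *rpl-19* at 348 bp inside the gene, and neither was bound. The copy at *rpl-19* lay in a pooled candidate region of relative signal 1.27, while that at *rpl-34* lay in none. The string is a match of letters in these windows, and which protein reads it was not tested.

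The copies at 6 members are given so that the shared letters can be read one above the other. Each is the string with 10 bases to either side, turned so that it reads as above, with its letters in capitals and the free base in lower case. They lie at chrX:2242950-2242983 (minus strand) for *rpl-11.2*, chrIII:8130508-8130541 (minus) for *rpl-21*, chrII:5055376-5055409 (plus) for *rpl-22*, chrIV:13881969-13882002 (plus) for *rpl-29*, chrIII:7208066-7208099 (plus) for *rpl-6* and chrIV:12268557-12268590 (plus) for *rpl-34*, the last being the one that was not bound.
rpl-11.2: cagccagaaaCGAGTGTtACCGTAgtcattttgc
rpl-21: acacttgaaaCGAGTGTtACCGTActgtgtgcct
rpl-22: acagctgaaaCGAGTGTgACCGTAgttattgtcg
rpl-29: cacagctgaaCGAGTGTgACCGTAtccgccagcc
rpl-6: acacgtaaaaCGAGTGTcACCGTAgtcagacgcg
rpl-34: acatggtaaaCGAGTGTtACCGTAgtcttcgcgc

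A gene on the same strand ended within 500 bp upstream of the start for 0 of 28 bound members and 5 of the 22 members not bound, and for 18.1% of all protein-coding genes. Within 1000 bp the counts were 9 of 28 bound members and 8 of 22 of those not bound, against 28.9% of all genes. The difference between bound and not bound members was not tested. Over all genes, a thresholded summit was about as common with such a neighbour (4.73%) as without it (5.37%). Genes close together on 1 strand can belong to an operon, in which several worm genes are transcribed from 1 promoter, but operons were not annotated in the reference used here.

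For *rla-1* the upstream gene was Y37E3.8, ending 106 bp away, for *rpl-27* it was C53H9.2 at 120 bp and for *rpl-19* it was C09D4.6 at 365 bp, and none of the 3 upstream genes was bound. *rpl-16*, for uL13, lay 106 bp downstream of *lias-1*, the lipoic acid synthase gene, and *lias-1* had a thresholded summit at −281 bp from its own start with a relative signal of 3.03. *rpl-25.1*, for uL23, lay 98 bp downstream of *glit-1*, which had a summit at −222 bp from its own start with 4.81. In both, the thresholded summit nearest to the member was that of the upstream gene, at −1778 bp from *rpl-16* and −3121 bp from *rpl-25.1*.

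Over all 22 members not bound, a thresholded summit lay within 1000 bp of the start for 4, against 1.89% of the 18923 protein-coding genes not bound. Within 10000 bp one lay for 10 of the 22, against 25.3% of those genes. The median distance was 11608 bp for the members not bound and 24885 bp for all genes not bound. *rpl-43* had one at −723 bp with a relative signal of 5.85, nearest to the start of Y48B6A.1, and *rpl-27* one at 729 bp, with 9.85, nearest to *egl-30*. *rpl-26* had one at 987 bp, nearest to *suf-1*. *rpl-19* was the farthest from any, at 106399 bp.

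Several members carry genes for small nucleolar RNAs, which guide chemical changes of rRNA, in their introns or ends. There were 8 such hosts with 12 snoRNA genes inside them on the same strand. Of the hosts, 5 were bound, with 9 snoRNA genes, and 3 were not, with 3. Over all 159 protein-coding hosts of the annotation, members included, 30 were bound (18.9%). *rpl-6* held 3 snoRNA genes, and *rpl-15* and *rpl-7A* 2 each. No tRNA gene lay within 500 bp of a bound member's summit.

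With the window of 500 bp, the large subunit had 28 of 50 bound (56.0%) and the small subunit 18 of 31 (58.1%), with median mean signals over the bound genes of 4.15 and 5.74. The highest small subunit gene was *rps-1*, with 16.7 and 19.2 in the replicates (18.0 ± 1.77), below 4 of the large subunit genes. Median summit positions were −298.5 bp for the large and −296 bp for the small subunit genes. Of the mitochondrial large subunit genes 5 of 41 were bound (12.2%), with a median position of −131 bp, and of the mitochondrial small subunit genes 3 of 29 (10.3%). The order of the lists depended on the window. At 250 bp to either side 9 of 50 large subunit genes (18.0%) and 3 of 31 small subunit genes (9.68%) were bound, while the mitochondrial counts stayed at 5 of 41 (12.2%) and 3 of 29 (10.3%).

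**Figure D3:**
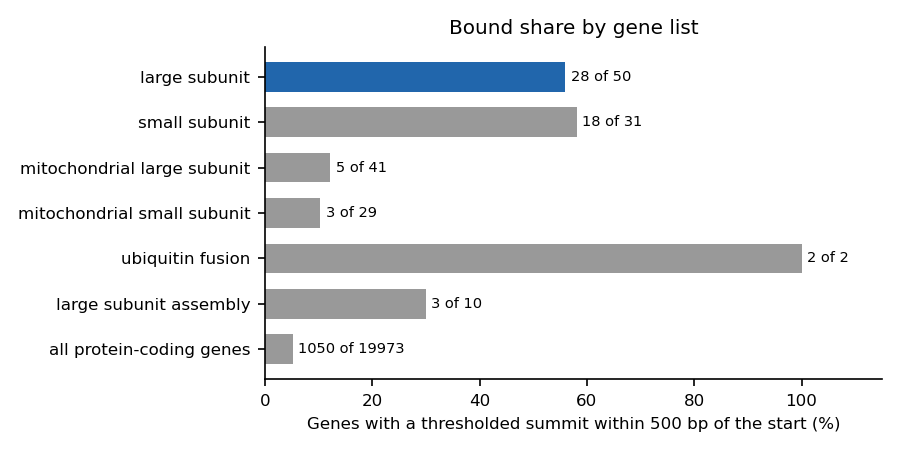
Percentage of genes with a thresholded summit within 500 bp of the start, with bound and total gene numbers beside each bar, for the large subunit genes in blue and other lists in grey. The cytosolic subunits stand at 56.0% and 58.1%, and all protein-coding genes at 5.26%.

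The 2 genes that encode a ribosomal protein fused to ubiquitin or a ubiquitin-like sequence were both bound. *ubq-2*, whose product yields the large subunit protein eL40, had 5.54 and 6.88 (6.21 ± 0.948), and *ubl-1*, for a small subunit protein, had 2.86 and 3.04 (2.95 ± 0.127). Of 10 genes on the list for large subunit assembly 3 were bound (30.0%). These were *pro-1* with 6.96 and 9.49 (8.23 ± 1.79), *fib-1* with 5.84 and 6.04 (5.94 ± 0.139), and *lpd-7* with 3.04 and 3.43, at the summit it shares with *rpl-9*. *fib-1* encodes the fibrillarin that methylates rRNA and is not particular to the large subunit. *nog-1*, *lpd-6*, *eif-6*, *ngp-1*, *nst-1*, *pro-2* and *pro-3* were not bound.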

How the data were processed

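Per the deposited text descriptions, each replicate alignment was compared with a control alignment to list regions and background, the pool of both replicates was treated likewise, and the irreproducible discovery rate procedure gave the thresholded list. The deposited signal of each region has no stated scale and was divided by the median of its list, and the thresholded signal by the pooled median. The deposited −log10 q-values served only as a stricter alternative threshold. The sources used here give neither aligner, peak caller nor depth, so precision is known only from the spread of 2 replicates.

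Positions count from 1 on ce11 (WBcel235). Genes came from Ensembl release 115. Python 3 scripts with pandas and numpy did all counting and were tested on simulated data. No significance test was made: counts and medians stand beside those of all genes. A region's summit is the authors' offset within it. The members, lists and motifs were chosen with earlier results of these data known. Named genes were the 12 strongest and 4 weakest bound members, the 4 highest and 4 lowest members not bound, members lacking a candidate in a replicate, numbered pairs, and genes sharing a summit, upstream or in the small lists. The joined string was chosen after the letters were seen. Proteins were translated from annotated coding sequences, and identity is over a global alignment.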

Additional observations from a re-analysis of the deposited data

How the results depend on the processing

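The count of bound members was 28 with every transcript start, against 5.74% of all genes. It was also 28 with any peak overlap in place of the summit (6.03% of all genes) or at least 50% overlap (5.26%). Either replicate was also left out, that is with the 2095 strongest regions of the other alone. The count was then 29 without replicate 3 (5.18% of all genes) and 28 without replicate 4 (4.94%). It was 22 with above-median peaks (3.06% of all genes) or nearest-start assignment (8.03%), 24 with q at or below 0.01 (3.50%), and 32 within 1000 bp (7.05%). The 2095 strongest pooled regions also gave 28, but all thresholded peaks are pooled regions, so this was no separate check. At 250 bp 9 members were bound (3.32% of all genes), 2 of them at a shared summit, with a median position of −227 bp and a median relative signal of 3.24 over 7 with both replicates. The small subunit then had 3 bound, the mitochondrial lists still 5 and 3, the ubiquitin fusions 1, and candidates were at 21 (pooled), 18 (replicate 3) and 17 (replicate 4) members. At 1000 bp 25 of the 32 bound members shared a summit, but sharing was not counted over all bound genes at that window. There 8 mitochondrial large subunit genes were bound. That list had 3 with above-median peaks and 3 with q at or below 0.01. The median position was −290.5 bp with above-median peaks, q at or below 0.01 or 1000 bp, and between −289 and −279 bp with a replicate left out. A same-strand neighbour within 1000 bp was found for 8 members not bound and 9 bound ones. The 12 strongest members were the same by rank and in the pooled list, and 11 of them in replicate 4 alone. In the widest windows tried TATAAA was in 6 of 28 members, 27.5% of other peaks and 34.1% of promoter windows. RefSeq names and single-copy windows were alternatives chosen after seeing the data. The cause was not tested. No paired analysis was possible because there is 1 group. With 2 replicates and no depth, weak regions cannot be ordered.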
